A study of Mus musculus with 8 samples.

Results

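Mouse genome stretches on chromosomes 2, 7 and 9 chosen as sites of large clusters of olfactory receptor genes were examined for regions bound by Brdt in male germ cells. These 3 stretches, called windows here, run on the mm9 build from 85 to 90 Mb of chromosome 2, from 109.5 to 115.5 Mb of chromosome 7 and from 37.5 to 40 Mb of chromosome 9. A bound region is an island, a run of neighbouring 200-base windows in which the ChIP reads exceeded the control reads after these were scaled by library size; as counted, an island may hold fewer ChIP than control reads. An island was assigned to a window by its start alone, with no use of its reads or fold. In all, 2168 of the 426082 islands of the 4 anti-Brdt lists started in the windows. They were 209 of 36615 islands for wild-type spermatocytes, 447 of 74968 for wild-type round spermatids, 552 of 112671 for BD1del spermatocytes and 960 of 201828 for BD1del round spermatids. The rest of chromosomes 2, 7 and 9 held another 68455 islands over the 4 lists.

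The groups were formed by germ cell stage and genotype. Spermatocytes are the cells in meiosis and round spermatids the haploid cells that follow it, and both were separated from testis cell suspensions of adult mice on a BSA gradient. Wild-type animals were of the strain C57BL/6, with cells of 10 mice pooled, and the chromatin was cut with MNase to fragments of about 200 bp. BD1del mice lack BD1, the first of the bromodomains of Brdt, and for these animals strain, pooling and chromatin preparation are not given in the sources used here. Every one of the 4 combinations had 1 library made with an antibody against Brdt and 1 input library. With no replicates, no difference between lists has a test, and the intervals printed below are exact 95% binomial intervals (Clopper-Pearson) that cover counting error only. Neighbouring islands are not independent, so the intervals are too narrow. The list labels name a different set of sequenced tags for each genotype, so genotype and read set cannot be told apart.

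Brdt is the testis-specific member of the BET family of proteins, whose bromodomains bind acetylated lysines of histones. Olfactory receptors are G-protein-coupled receptors that detect odorants, and a sensory neuron of the nose expresses a single one of the many genes. The genes have short coding regions without introns and lie in dense tandem arrays, poor in other genes, which in most tissues are silent and packed in heterochromatin. Some members of the family are also known to be transcribed in testis. The RefSeq annotation of the GRCm38.p6 build names 1109 protein-coding olfactory receptor genes and 300 pseudogenes. Chromosome 2 carries 287 of the coding genes, chromosome 7 carries 239 and chromosome 9 carries 130, together 59.15% of them. On chromosome 2 the longest unbroken run holds 123 coding olfactory receptor genes, from Olfr153 to Olfr1274, and chromosomes 7 and 9 have runs of up to 42 and 40. On chromosome 7 the run of 153 coding genes from Olfr543 to Olfr692 holds 126 olfactory receptor genes together with 12 Trim genes, 5 Usp17l genes and the 5 beta-like globin genes, which lie between Olfr67 and Olfr66. This annotation is on another build than the islands, so it was used for gene names and order only, and no island was assigned to a gene. Which genes the windows hold on mm9 was not checked here.

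Wild-type lists covered more of the windows than of the rest of the same chromosomes. For wild-type spermatocytes, islands covered 4.73% of the bases of the 3 windows and 2.73% of the rest, a ratio of 1.73. For wild-type round spermatids the shares were 6.23% and 4.36%, a ratio of 1.43. For BD1del spermatocytes they were 6.06% and 5.80%, and for BD1del round spermatids 5.53% and 5.31%, ratios of 1.04 in both lists. Counts of islands gave the same order. The windows make up 3.005% of the span of the 3 chromosomes, and they held 4.40% (3.84 to 5.03) of the chromosomes' islands for wild-type spermatocytes and 3.67% (3.35 to 4.02) for wild-type round spermatids. In BD1del they held 2.90% (2.66 to 3.14) and 2.77% (2.60 to 2.95) in spermatocytes and round spermatids, close to or just under the share of bases. The excess in wild-type spermatocytes depended on the weakly enriched islands: the ratio was 0.502 when islands under a fold of 2 were left out, and 0.887 among the 10000 islands of lowest p-value.

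The windows differed from each other. On chromosome 2 the window was denser than the rest of the chromosome in all 4 lists, with 6.34% against 3.54% for wild-type spermatocytes, 8.06% against 5.19% for wild-type round spermatids, 8.16% against 6.77% for BD1del spermatocytes and 7.81% against 6.25% for BD1del round spermatids. The ratios fell from 1.79 and 1.55 in wild type to 1.20 and 1.25 in BD1del. On chromosome 7 the window was denser in both wild-type lists, with 4.19% against 2.44% in spermatocytes and 5.83% against 3.97% in round spermatids, and close to the rest in BD1del, with 5.08% against 4.97% and 4.21% against 4.47%. The chromosome 9 window was the sparsest of the 3 in all lists. There 2.82% of bases were covered in wild-type spermatocytes against 1.89% of the rest, from 25 islands, and 3.54% against 3.62% for wild-type round spermatids. In the BD1del lists the chromosome 9 window was less covered than the rest, with 4.21% against 5.38% in spermatocytes and 4.15% against 4.94% in round spermatids. The 25 wild-type spermatocyte islands were 2.57% (1.67 to 3.77) of those on chromosome 9, an interval that holds the 2.065% of the span that the window takes up.

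**Figure D1:**
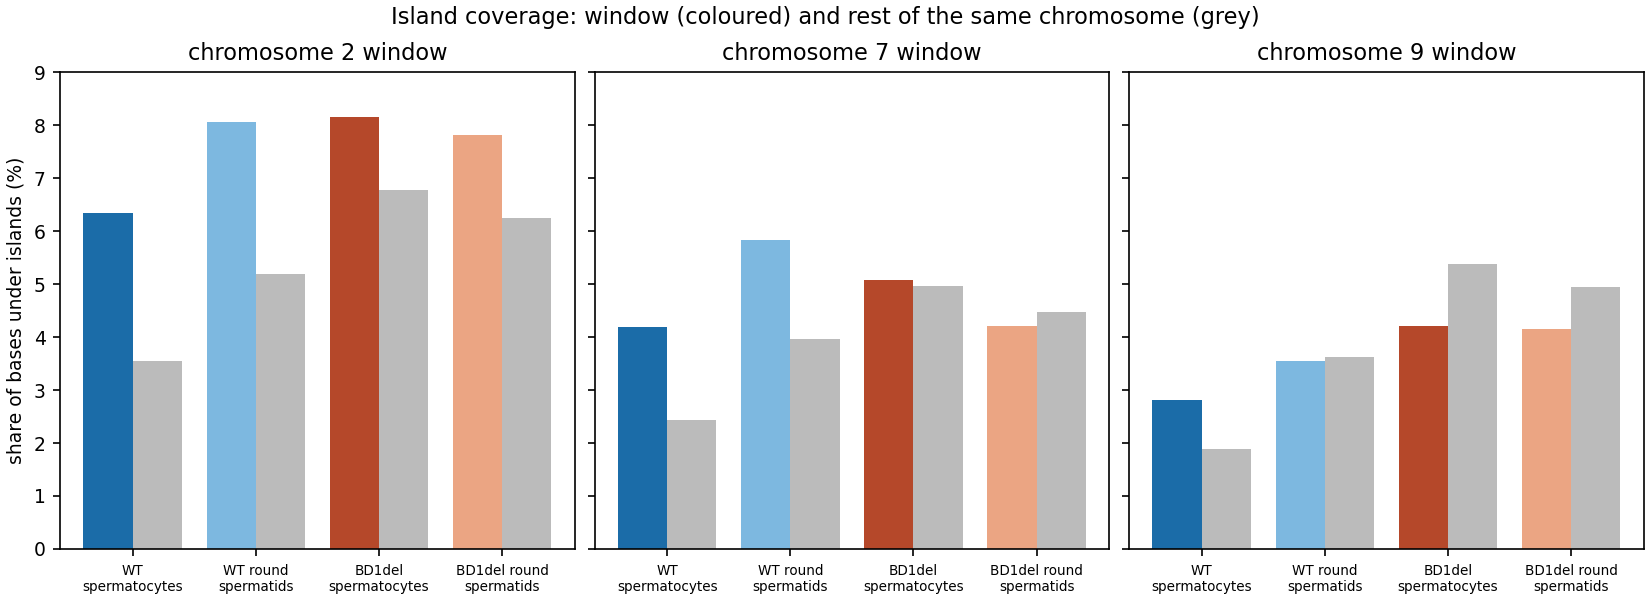
Share of bases under islands (%) in each window (coloured bars) and in the rest of the same chromosome (grey bars) for the 4 lists, 1 library each, so bars have no error. The chromosome 2 bars exceed the grey bars in every list (8.06% against 5.19% for wild-type round spermatids), and those of chromosome 9 fall below them in both BD1del lists (4.21% against 5.38% in spermatocytes).

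The background used matters for chromosomes 7 and 9, where the rest of the chromosome was sparser than other autosomes. All autosomes outside the windows were covered to 3.45% for wild-type spermatocytes, and to 2.80% once 41 bins of 1 Mb covered to at least 20% in any list were set aside. Against all autosomes the wild-type spermatocyte ratio was 1.84 in the chromosome 2 window, 1.21 in the chromosome 7 window and 0.817 in the chromosome 9 window. Without the dense bins, a background added after the data were seen, the ratios were 2.27, 1.496 and 1.01. Of the 3 olfactory receptor regions, those of chromosomes 2 and 7 were therefore denser than each background in wild-type spermatocytes. That of chromosome 9, with only 25 islands, was more covered than the rest of its own chromosome. It was less covered than all autosomes and level with them once the dense bins were left out. The rest of chromosome 7 also contained a stretch of 7.01 Mb with no island of any list, and without it the chromosome 7 ratio for wild-type spermatocytes was 1.64.

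Set side by side, the covered share changed less between wild-type lists inside the windows than outside. From wild-type spermatocytes to wild-type round spermatids the covered share was 1.32 times as large in the windows and 1.60 times as large in the rest. Between BD1del spermatocytes and BD1del round spermatids the factors were 0.913 and 0.915. From wild-type to BD1del spermatocytes the factor was 1.28 in the windows and 2.13 in the rest, and from wild-type to BD1del round spermatids 0.888 and 1.22. For this last pair chromosome 7 stood furthest apart, with 0.722 in the window and 1.12 in the rest. The factor was thus smaller in the windows in each pair that includes a wild-type list, and nearly the same in both places between the BD1del stages. These are differences between single libraries and were not tested.

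Islands in the windows were somewhat longer in the wild-type lists. For wild-type spermatocytes their median length was 2600 bases against 2200 in the rest, and on chromosome 2 it was 2800 bases. For wild-type round spermatids the medians were 1600 and 1400 bases, although on chromosome 9 they were 1300 and 1400, for BD1del spermatocytes 1200 in both places, and for BD1del round spermatids 600 and 400, with medians equal to the rest in each single window. Islands of a single 200-base window were 1.91% of those in the windows for wild-type spermatocytes and 37.5% for BD1del round spermatids, against 2.93% and 40.0% of the rest. The longest island of the windows lay on chromosome 2 in wild-type spermatocytes. It ran from 85858201 to 85869000, a length of 10.8 kb, with 424 ChIP reads and 582 control reads and a deposited fold of 1.30, and islands of all 3 other lists overlapped it. Long islands of low fold were the rule: the longest of each window and list measured 2.4 to 10.8 kb, with folds from 1.27 to 3.46.

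Islands in the windows held 24294 ChIP reads and 27988 control reads for wild-type spermatocytes, and 20750 and 34846 for wild-type round spermatids. In BD1del they held 24324 and 42754 in spermatocytes and 29611 and 33221 in round spermatids. The median island of the windows had 92 ChIP reads for wild-type spermatocytes, 38 for wild-type round spermatids, 39 for BD1del spermatocytes and 26 for BD1del round spermatids, against 84, 34, 39 and 26 in the rest. Over the 3 windows summed ChIP reads per Mb were lower than in the rest in every list, with 1800 against 2387 in the spermatocyte list of the wild type. In the windows of chromosomes 2 and 7 the sums were higher than in the rest in both wild-type lists, with 2538 against 1918 on chromosome 2 in spermatocytes. On chromosome 2 they were lower in both BD1del lists, with 2313 against 2547 in spermatocytes. On chromosome 7 they were level in BD1del spermatocytes, 1579 against 1580, and lower in BD1del round spermatids, 1842 against 2052. On chromosome 9 the sum was lower in the window, 1027 against 4736 in wild-type spermatocytes. In that list the rest of chromosome 9 held 561517 of the 1040443 ChIP reads of the rest, and 465929 of its 974727 control reads. These lay in 947 of the 4537 islands of the rest, so the lower pooled sum of the windows in that list rests on chromosome 9. Wild-type spermatocyte islands reached 39.0 kb on the rest of chromosome 9 against 6.2 kb in its window.

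Folds were lower in the windows than outside. The deposited fold is the authors' ratio of ChIP reads to control reads scaled by library size, and its levels are not comparable between lists of different depth. For wild-type spermatocytes the median fold was 1.56 in the windows and 1.73 in the rest, for wild-type round spermatids 2.45 and 2.86, for BD1del spermatocytes 3.56 and 3.95, and for BD1del round spermatids 6.41 and 7.34. Within each list all 3 windows had a lower median than the rest of their chromosome. The upper end differed most in wild-type spermatocytes, where the 95th percentile of fold was 2.35 in the windows and 6.74 in the rest. Folds at that percentile were 12.4 and 12.9 for wild-type round spermatids and 29.9 and 32.7 for BD1del round spermatids, and for BD1del spermatocytes the windows were the higher with 16.9 against 15.5.

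**Figure D2:**
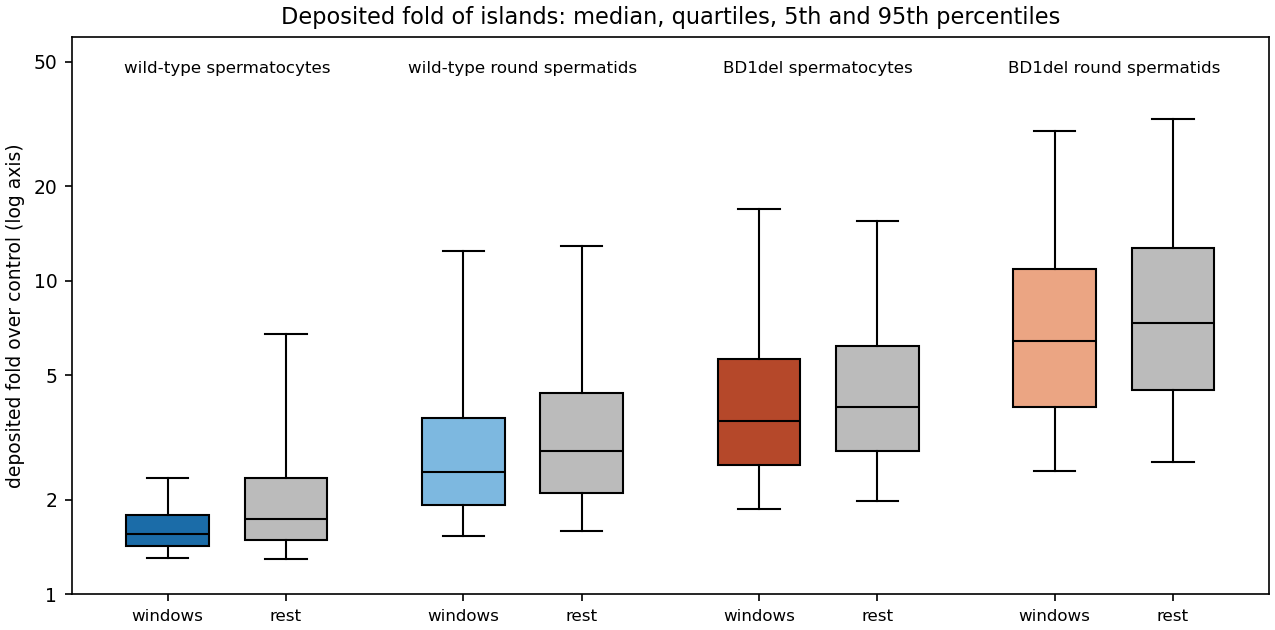
Deposited fold of ChIP over scaled control reads (log axis) for islands in the 3 windows (coloured) and on the rest of chromosomes 2, 7 and 9 (grey): line, median; box, quartiles; whiskers, 5th and 95th percentiles. Each coloured median lies below the grey one of its list (1.56 against 1.73 for wild-type spermatocytes), and the upper whisker of wild-type spermatocytes stops at 2.35 against 6.74.

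Islands with a fold of at least 2 were scarce in the windows of wild-type spermatocytes. Of the 209 islands, 29 passed it, a share of 13.9% (9.49 to 19.3), against 35.0% on the rest of the chromosomes and 29.2% of all islands of the list. For wild-type round spermatids 320 of 447 passed, 71.6% (67.2 to 75.7) against 79.3% in the rest and 75.3% of all islands. For BD1del spermatocytes it was 510 of 552, 92.4% (89.8 to 94.5) against 94.7% and 93.5%. Almost all islands of BD1del round spermatids passed, 947 of 960 or 98.65% against 98.9% and 98.3%. A fold of at least 5 was reached by 2 of the 209 window islands of wild-type spermatocytes, both on chromosome 9, and by 363 of 4537 islands in the rest.

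Split by fold, the extra coverage of the windows lay in the weak islands in wild-type spermatocytes and in both classes in wild-type round spermatids. For wild-type spermatocytes islands with a fold under 2 covered 4.45% of the windows and 2.17% of the rest, while those with a fold of at least 2 covered 0.282% and 0.561%. The weak class was denser in each window, by a ratio of 2.05 on chromosome 2, 2.08 on chromosome 7 and 1.83 on chromosome 9, and the stronger class was sparser in each, with ratios of 0.391, 0.520 and 0.684. For wild-type round spermatids both classes were denser in the 3 windows together, 2.76% against 1.49% under a fold of 2 and 3.47% against 2.87% above it. On chromosome 9 alone the stronger class was sparser in the window, 2.42% against 2.70%. The strongest islands, with a fold of at least 5, were sparser in the windows of both BD1del lists. They had 0.723 times the covered share of the rest in spermatocytes and 0.808 times in round spermatids (1.85% against 2.29%). In wild type the ratio was lower still in spermatocytes, 0.094 from 2 window islands, and 0.993 in round spermatids. BD1del lists held few weak islands anywhere: a fold under 2 accounted for 0.608% of the bases outside the windows in spermatocytes and for 0.171% in round spermatids. The control libraries of these lists were 5.64 and 5.45 times as large as the ChIP libraries, against 1.79 and 3.79 times for wild-type spermatocytes and round spermatids, by the ratio that the deposited counts and folds imply. Coverage by weak islands is therefore not comparable between the genotypes, nor between the wild-type stages.

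**Figure D3:**
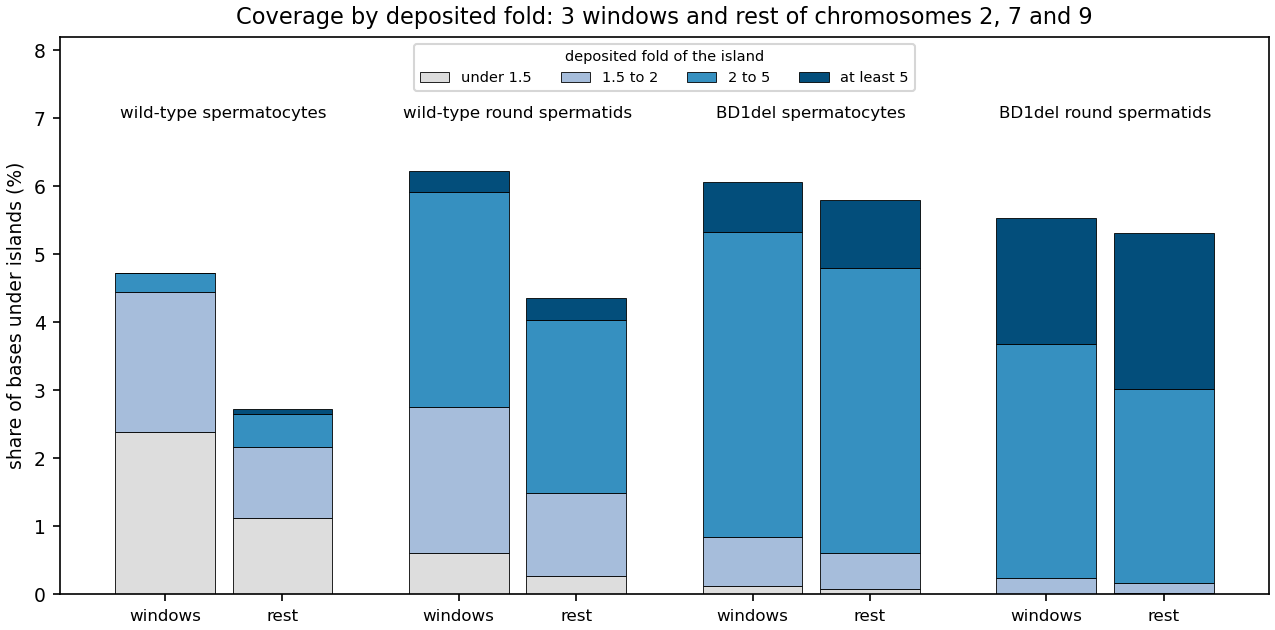
Share of bases under islands (%), stacked by deposited fold class, in the 3 windows together and on the rest of chromosomes 2, 7 and 9 for the 4 lists. The 2 lowest classes make the windows taller in wild-type spermatocytes (4.45% against 2.17% under a fold of 2). The darkest class is thinner in the windows of wild-type spermatocytes and of both BD1del lists (1.85% against 2.29% in BD1del round spermatids).

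Control reads moved with the windows as well. Over islands of at least 1000 bases the median number of control reads per kb was 41.5 in the windows and 38.9 in the rest for wild-type spermatocytes, 37.3 and 32.0 for wild-type round spermatids, 51.9 and 49.0 for BD1del spermatocytes and 42.0 and 41.7 for BD1del round spermatids. Median ChIP reads per kb in the same islands were 36.2 and 36.9, 22.0 and 22.2, 26.7 and 27.9, and 27.0 and 29.0. So over the 3 windows ChIP density was similar or slightly lower inside. Control density was higher inside in both wild-type lists and in BD1del spermatocytes, and nearly level in BD1del round spermatids. On chromosome 2 it was 43.5 against 33.3 control reads per kb for wild-type round spermatids. In the chromosome 7 window of BD1del round spermatids it was lower, 40 against 41.7. ChIP density was higher in the chromosome 2 window of wild-type spermatocytes, 39.1 against 37.9. The part of the control signal in these folds was not tested.

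Coverage was uneven along each window. In bins of 500 kb, wild-type spermatocyte coverage of the chromosome 2 window ranged from 1.60% to 12.7%, and 7 of its 10 bins lay above the upper quartile of the rest of the chromosome, 4.70%. The densest bin, from 88 to 88.5 Mb, was followed directly by the sparsest. For wild-type round spermatids 7 of 10 bins exceeded the upper quartile, and in both BD1del lists 6 did. The densest bin of both BD1del lists ran from 89 to 89.5 Mb, with 12.0% in spermatocytes and 11.7% in round spermatids. On chromosome 7 both wild-type lists peaked between 110.5 and 111 Mb, at 8.52% in spermatocytes and 11.1% in round spermatids. No wild-type spermatocyte island lay between 112446401 and 113005000, a gap of 558.6 kb, whereas BD1del spermatocytes had their densest bin of the window, 6.48%, from 112.5 to 113 Mb. The BD1del spermatocyte profile of the chromosome 7 window stayed between 3.92% and 6.48%. On chromosome 9 both wild-type lists were densest from 38 to 38.5 Mb, at 6.68% and 5.20%, and no bin of either BD1del list exceeded the upper quartile of the rest.

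**Figure D4:**
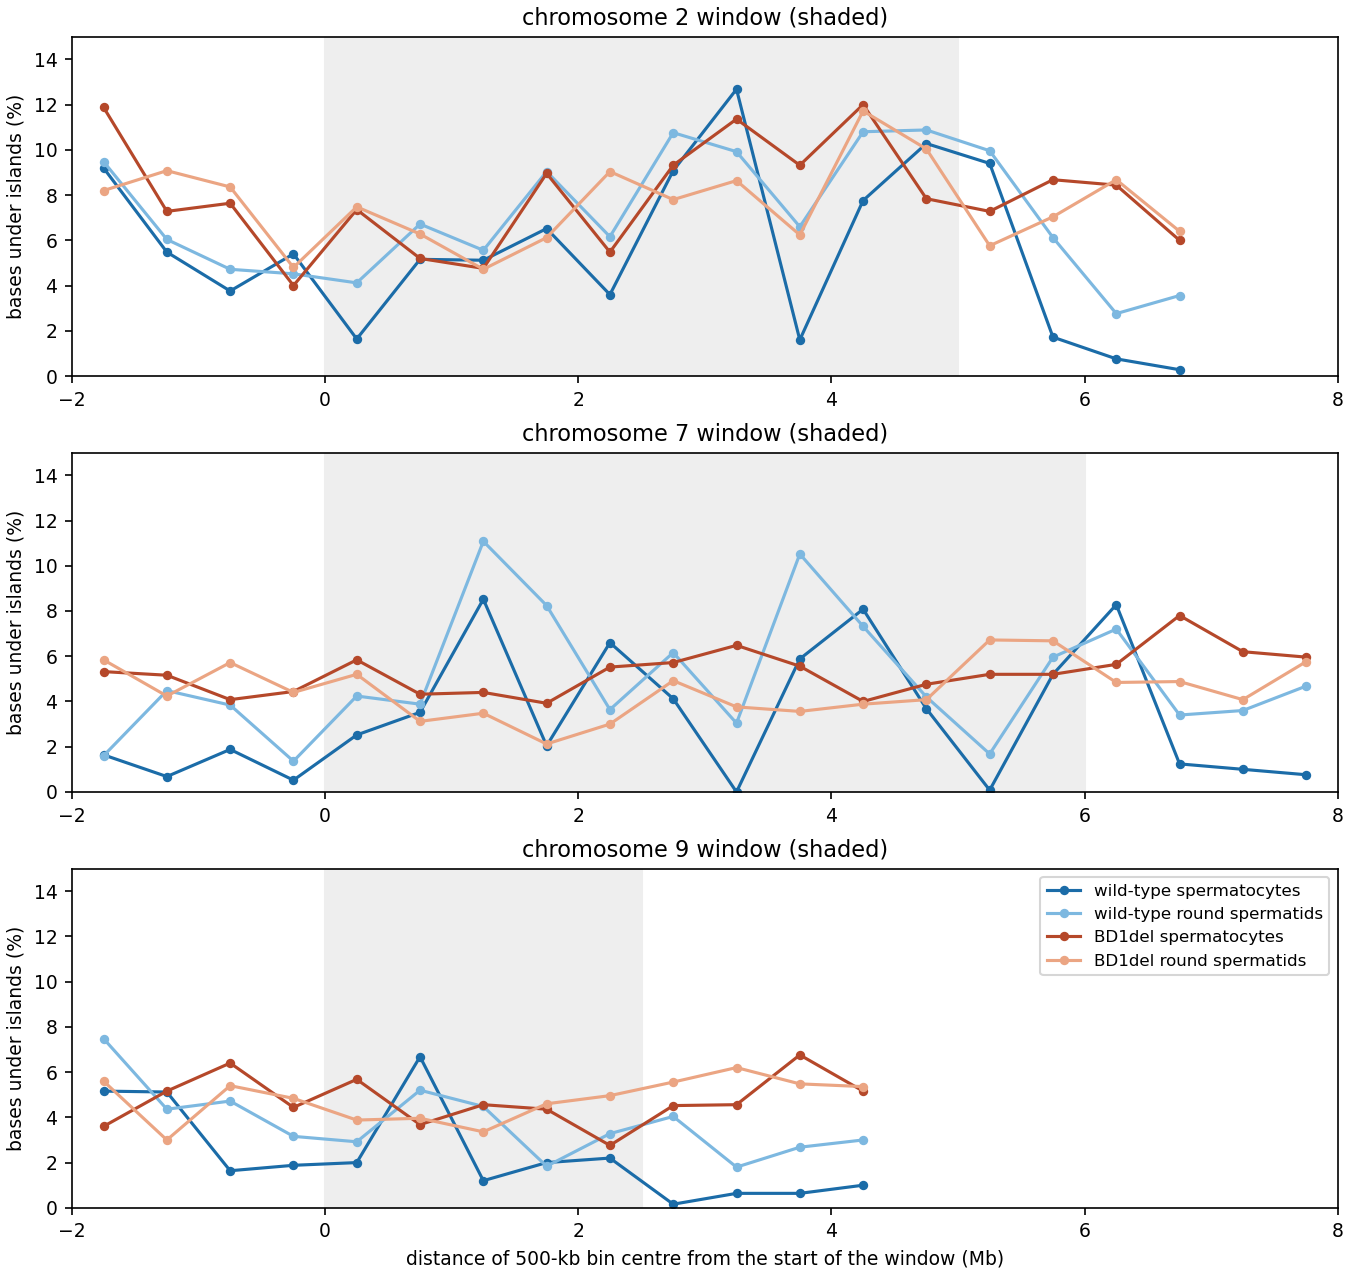
Share of bases under islands (%) in bins of 500 kb against distance from the start of each window (Mb), with 2 Mb on either side; the window is shaded and lines join the bins of 1 list. The wild-type lines reach 12.7% in the chromosome 2 window and 11.1% in the chromosome 7 window, and the BD1del spermatocyte line of chromosome 7 stays between 3.92% and 6.48% inside the window.

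Pooled over the windows, bins ranked alike within a genotype more than across genotypes. Over the 27 bins Spearman's coefficient was 0.733 between the wild-type stages and 0.600 between the BD1del stages, and 0.181 to 0.337 for the 4 pairs of a wild-type with a BD1del list. Over the 869 bins of the rest the coefficients were 0.630, 0.440 and 0.204 to 0.273. Within single windows this order held on chromosome 7 only. There the wild-type stages gave 0.594, the BD1del stages 0.389 and the pairs across genotypes -0.343 to -0.210. Over the 10 bins of chromosome 2 the BD1del stages gave 0.462 and the pairs across genotypes 0.450 to 0.626. Over the 5 bins of chromosome 9 the BD1del stages gave -0.800. Bins of a window are neighbours and all lists share the sequence and its mappability, so these values describe the lists only.

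Between stages, wild-type islands of the windows overlapped more often than those of the rest, but their intervals held the shares of the whole lists. Of the 209 wild-type spermatocyte islands, 136 were met by 1 base or more of a round spermatid island, 65.1% (58.2 to 71.5) against 56.5% in the rest and 58.9% over the whole list. In the other direction 147 of 447 round spermatid islands were met, 32.9% (28.5 to 37.5) against 22.6% and 30.3%. Between the BD1del stages 116 of 552 spermatocyte islands were met, 21.0% (17.7 to 24.6) against 20.3% in the rest and 24.2% over the list, and 117 of 960 round spermatid islands, 12.2% (10.2 to 14.4) against 11.4% and 13.9%. An overlap is likelier where the other list covers more bases, and wild-type round spermatids covered 6.23% of the windows and 4.36% of the rest.

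Across genotypes, 75 of 209 wild-type spermatocyte islands met one of BD1del spermatocytes, 35.9% (29.4 to 42.8) against 29.2% in the rest and 35.0% over the list. Conversely 78 of 552 BD1del spermatocyte islands were met, 14.1% (11.3 to 17.3) against 7.44% and 11.9%. In round spermatids 119 of 447 wild-type islands met one of BD1del, 26.6% (22.6 to 31.0) against 24.4% and 29.1%, and 117 of 960 BD1del islands met one of wild type, 12.2% (10.2 to 14.4) against 8.76% and 11.2%. Most of these shares in the windows are near that of the whole list.

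Overlap was highest in the chromosome 2 window. There 76.0% (66.2 to 84.2) of the wild-type spermatocyte islands met a round spermatid island, against 60.2% (49.2 to 70.5) on chromosome 7 and 40.0% (21.1 to 61.3) on chromosome 9. For wild-type spermatocyte islands met by BD1del spermatocytes the shares were 56.2% (45.8 to 66.4), 20.5% (12.6 to 30.4) and 12.0% (2.55 to 31.2), beside 39.1%, 18.1% and 22.2% on the rest of the same chromosomes. In all 8 directions the chromosome 2 share lay above that of the rest of its chromosome, with the interval clear of it, and above both other windows. On chromosome 7 one direction also lay clear of the rest, with 28.4% (22.2 to 35.3) of wild-type round spermatid islands met by wild-type spermatocytes against 21.3%. The rest of chromosome 2 was itself above the rest of chromosomes 7 and 9 in all 8.

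**Figure D5:**
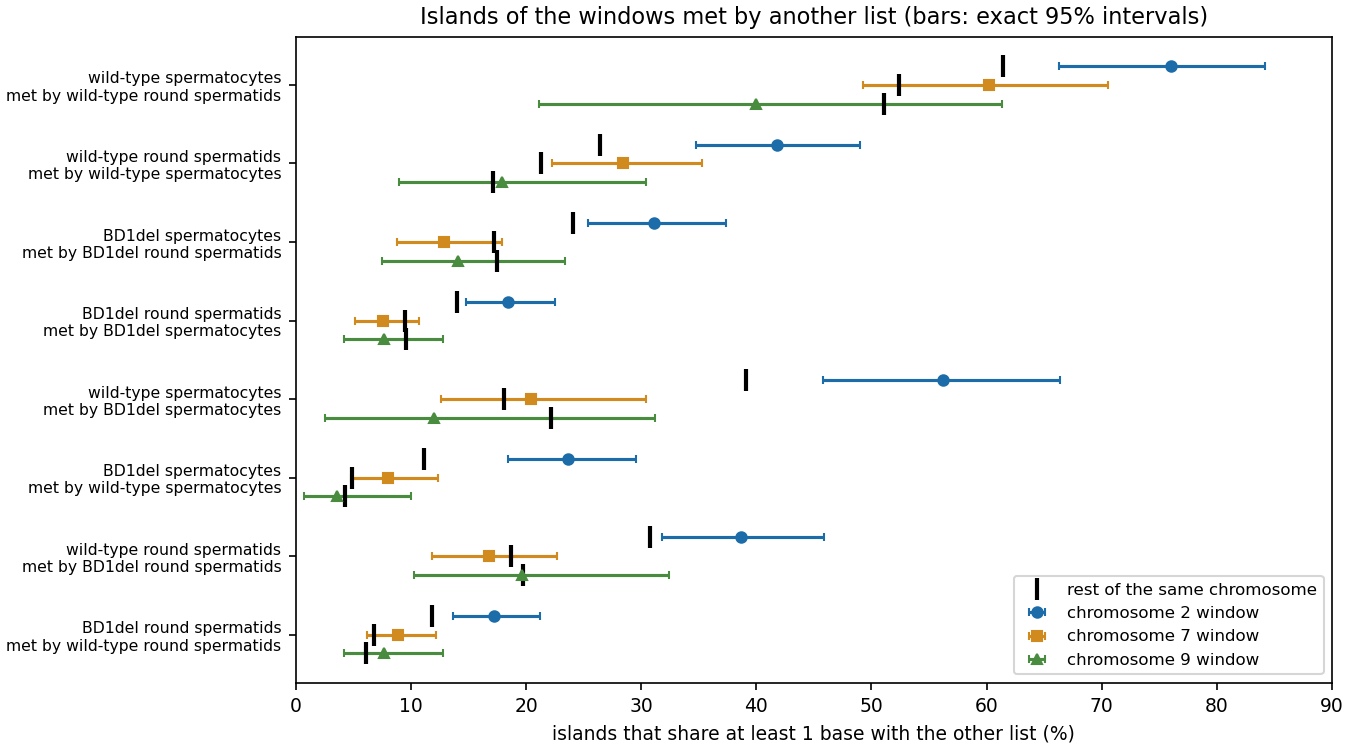
Share of islands (%) that overlap an island of a second list by at least 1 base, for 8 ordered pairs of lists: points, the 3 windows with exact 95% binomial intervals; vertical ticks, the rest of the same chromosome. Chromosome 2 points lie above their ticks in each pair (56.2% against 39.1% for wild-type spermatocytes met by BD1del spermatocytes), while the intervals of chromosome 9 all include theirs.

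Some stretches of the windows were under an island in all 4 lists. Islands that met all 3 other lists numbered 40 for wild-type spermatocytes (19.1%), 39 for wild-type round spermatids (8.72%), 36 for BD1del spermatocytes (6.52%) and 36 for BD1del round spermatids (3.75%). The shares in the rest were 14.1%, 5.41%, 3.35% and 1.80%, and over the whole lists 19.9%, 9.65%, 6.26% and 3.52%, so the 3 windows together stood above their chromosomes and close to the lists as a whole. The chromosome 2 window held 34, 34, 32 and 32 of these islands, and the other windows did not stand clearly apart: for wild-type round spermatids the shares were 2.03% against 2.05% in the rest on chromosome 7 and 1.79% against 2.18% on chromosome 9. Islands that met no other list numbered 55, 223, 377 and 756 in the same order of lists. Their shares were 26.3%, 49.9%, 68.3% and 78.75%, against 26.2%, 55.2%, 71.9% and 81.1% in the rest and 24.2%, 48.9%, 67.4% and 77.7% over the whole lists. The windows went different ways in wild-type spermatocytes. On chromosome 2 the share was 10.4% against 20.6% in the rest, on chromosome 7 34.1% against 32.1%, and on chromosome 9 60% against 30.5%, from 15 of 25 islands. For wild-type spermatocytes the islands met by all others had a median length of 4100 bases against 2200 for the private ones, and for BD1del round spermatids 1700 against 400, with median folds of 3.44 against 7.26. Long islands meet others more readily, so length and sharing are not separate observations.

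Bases under islands of all 4 lists formed 37 stretches of 47.8 kb in total, of which 33 lay in the chromosome 2 window, 3 in that of chromosome 7 and 1 in that of chromosome 9. The chromosome 2 window had 6.6 such stretches per Mb against 2.88 on the rest of that chromosome, and 0.920% of its bases against 0.335% were under all 4 lists. On chromosome 7 the densities were 0.5 and 0.425 per Mb and on chromosome 9 0.4 and 0.455. Between 87.5 and 90 Mb the chromosome 2 window held 27 of its 33 stretches, with 9 from 87.5 to 88 Mb and 8 from 88 to 88.5 Mb.

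The stretch with the highest lowest fold on chromosome 2 was chr2:85264401-85264800, under islands with folds of 1.99 for wild-type spermatocytes, 2.42 for wild-type round spermatids, 2.57 for BD1del spermatocytes and 3.36 for BD1del round spermatids. At chr2:87855401-87856400 the islands had folds of 1.92, 2.08, 4.31 and 6.98 in the same order, from 172, 106, 39 and 73 ChIP reads. All folds and reads given for shared stretches are those of the whole islands over them. These islands differ in length between lists, so their reads cannot be compared as counts of the stretch itself. Next came chr2:89534601-89537800, 3.2 kb long, with folds of 1.79, 1.83, 2.84 and 2.74. The longest shared stretch of the windows, chr2:89184601-89188800, measured 4200 bases and had folds of 1.56, 2.35, 3.25 and 4.24; it was picked for its length after the values were seen. On chromosome 7 the leading stretch was chr7:114449201-114450000, with folds of 1.93, 2.55, 5.01 and 5.45. The single one of chromosome 9, chr9:38081201-38081400, had folds of 1.99, 1.42, 2.403 and 3.60. All 7 ranked stretches of the windows had a fold under 2 in at least 1 list.

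The islands of highest fold were mostly short. Of the 36 taken, the 3 with the highest fold in each window and list among islands of at least 10 control reads, 32 were at most 1000 bases long, 27 met no island of another list and none met all the others. By list, 5 of 9, 7 of 9, 6 of 9 and 9 of 9 met no other, to be read against the shares of private islands above, and in BD1del most islands of the windows met no other list. Short islands are also usual for BD1del round spermatids, where the upper quartile of length in the windows was 1000 bases. For wild-type spermatocytes their folds ran from 2.35 to 5.50. The highest was at chr9:39285601-39286200, with 123 ChIP and 40 control reads and no island in another list. On chromosome 2 the leading wild-type spermatocyte island, chr2:88925601-88926800, had 89 ChIP and 44 control reads and a fold of 3.62; both BD1del lists had islands there, with folds of 4.42 in spermatocytes and 3.35 in round spermatids, and wild-type round spermatids had none.

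For wild-type round spermatids the top folds at this limit were 14.1 at chr2:87184401-87185200, from 41 ChIP and 11 control reads, 14.0 at chr9:38823001-38823800 and 10.5 at chr7:110984001-110985400, and none of these 3 met another list. For BD1del spermatocytes a single 200-base window at chr7:112491401-112491600 had the highest fold among window islands with at least 10 control reads, 20.9, from 37 ChIP and 10 control reads. It lies in the gap where wild-type spermatocytes had no island. A pair of BD1del islands shared their position at high fold: chr9:37737201-37738200 had a fold of 14.3 in spermatocytes, with 66 ChIP and 26 control reads, and 80% of it was under a round spermatid island with a fold of 14.0. For BD1del round spermatids the highest folds under the same limit were 20.8 at chr9:37987001-37987400, 19.97 at chr7:111793001-111793400 and 19.3 at chr2:88072201-88072400. The 9 leading islands of that list rest on small counts, with 10 to 19 control reads each.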

How the data were processed

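Each of the 4 lists is a summary of islands; SICER and the mm9 build are named in the submitters' processing notes, with windows of 200 and gaps of 600 bases per the labels of the lists. The aligner, read filters, SICER version and the input paired with each list are not given in the sources used here. ChIP and control counts are whole reads per island as deposited, not normalized. Fold, p-value and FDR are the authors' deposited values, the fold being a ratio of ChIP to scaled control reads. Library sizes are not known. The islands held 6476047, 4506707, 6391762 and 7310429 ChIP reads in wild-type spermatocytes, wild-type round spermatids, BD1del spermatocytes and BD1del round spermatids. These sums depend on the number and length of the islands called and do not measure depth. Coordinates are 1-based.

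Covered share is island bases clipped to a window over its length; the rest is the chromosome between its outermost islands in the 4 lists, minus the window. Overlap needed 1 base. Named regions were, per window and list, the longest island and the 3 highest in fold among those of 10 or more control reads, and per window the 3 stretches in all 4 lists with the highest lowest fold. The windows, lists and alternatives were chosen with earlier results of these data known. Coverage counting was tested on simulated data. Python 3.11.15, pandas 2.3.3, NumPy 2.4.6, SciPy 1.17.1 and Matplotlib 3.10.9 were used. No sequence is printed because no mm9 genome was used here.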

Additional observations from a re-analysis of the deposited data

How the results depend on the processing

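The ratio of covered share in the 3 windows to the rest was 1.73, 1.43, 1.04 and 1.04 in wild-type spermatocytes, wild-type round spermatids, BD1del spermatocytes and BD1del round spermatids. For wild-type spermatocytes it turned below 1 at an FDR of at most 1e-10 (0.844), at a fold of at least 2 (0.502) and among the 10000 islands of lowest p (0.887). The last 2 settings gave 1.21 and 1.09 in wild-type round spermatids. BD1del spermatocytes gave 0.946 at the strict FDR and 0.881 among 10000 islands, where BD1del round spermatids gave 0.530. Against all autosomes the ratio was 1.37 for wild-type spermatocytes, 1.29 for wild-type round spermatids and 0.978 for BD1del round spermatids. In single windows the direction turned in wild-type spermatocytes on chromosome 2 at the strict FDR (0.938) and the fold limit (0.391), on chromosome 7 at both (0.832 and 0.520) and among 10000 islands (0.753), and in BD1del round spermatids on chromosome 2 among 10000 islands (0.652). A turn was called only where the counting interval of the main ratio left out 1. This interval is that of the share of islands, scaled to the ratio of covered shares, so it leaves out the spread of island lengths. On chromosome 2 in BD1del round spermatids the share of islands itself, 2.758% (2.499 to 3.035), did not differ from the 2.797% of the span. Some ratios whose interval held 1 also crossed it: on chromosome 9 in wild-type spermatocytes 1.49 became 0.668 at the strict FDR, 0.684 at the fold limit, 0.606 among 10000 islands and 0.817 against all autosomes, and on chromosome 7 in BD1del spermatocytes 1.02 became 0.968, 0.471 and 0.822 at the strict FDR, among 10000 islands and against all autosomes. The fold limit removes the weak islands by construction; the cause of the other changes was not tested.

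Overlap shares fell under stricter rules. With at least 50% of an island covered they were 50.2% for wild-type spermatocytes met by round spermatids, 11.2% for BD1del spermatocytes met by round spermatids, 9.38% in reverse, 19.1% for wild-type spermatocytes met by BD1del, 14.3% for wild-type round spermatids met by BD1del and 9.48% in reverse. With a fold of at least 2 in both lists they were 24.1% and 2.19% between the wild-type stages, 13.8% and 0.784% between the genotypes in spermatocytes and 20.9% and 7.29% in round spermatids. Among 10000 islands per list they were 11.5% and 6.12% between the wild-type stages and 5.13% and 3.12% between the BD1del stages. Between genotypes they were 3.85% and 5.13% in spermatocytes and 6.12% and 9.38% in round spermatids. Under that rule the windows kept only 26 and 49 islands in wild type and 39 and 32 in BD1del, spermatocytes first. The fold limit kept 29 for wild-type spermatocytes. Shares from so few islands, given without intervals, cannot be ranked against each other. In all, 41 of these main values under an alternative stayed within their counting interval, 28 moved and 3 turned; of those for single windows 113 stayed, 25 moved and 6 turned. No 1-Mb bin of these chromosomes outside the windows was covered to 20%, so leaving such bins out changed nothing. That setting is in the counts although it could only stay, as is the one without empty stretches on chromosomes 2 and 9, which had no such stretch. An overlap share could stay or move but not turn. The autosomes without dense bins and the rest without long empty stretches were added after the data were seen. The depth of each library is not known, so its part in which folds were called was not tested.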
